A study of Homo sapiens with 6 samples.

Results

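The genes described here encode the collagen chains and the enzymes that crosslink them, measured in the breast cancer line MDA-MB-231 and in 2 cell populations isolated from it. The members are all probe sets annotated with a collagen chain symbol, together with those of the lysyl hydroxylases PLOD1, PLOD2 and PLOD3 and the lysyl oxidases LOX, LOXL1 and LOXL2. This gave 84 of the 22277 probe sets on the array, 73 for collagen chains and 11 for the enzymes. They stand for 38 of 11963 named genes, 32 collagens and 6 enzymes. The parental MDA-MB-231 line, a human triple-negative breast cancer line, and the isolates S1a and S1b were each measured on 2 Affymetrix arrays, 6 in all. The labels name S1a and S1b as the first and second isolated population of seeder cells, tumour cells that return from the circulation to a tumour. How they were isolated, and whether each is a clone, is not given in the labels. All 3 populations grew subconfluent in DMEM with 10% FBS, and the labels name no other treatment or genetic change. Because no isolated population other than seeder cells was measured, seeding and isolation cannot be told apart.

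Collagens are trimers of chains built from Gly-X-Y repeats that wind into a triple helix. In the endoplasmic reticulum, prolyl hydroxylases stabilise the helix and lysyl hydroxylases, encoded by the PLOD genes, modify lysines that later form crosslinks. Outside the cell, lysyl oxidases turn lysines and hydroxylysines into aldehydes that join neighbouring molecules, which stiffens the matrix. In breast tumours most fibrillar collagen comes from fibroblasts, while carcinoma cells contribute crosslinking enzymes, basement membrane chains and some pericellular collagens.

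Each value is a signal, the linear intensity of a probe set on 1 array as deposited. The 2%-trimmed mean signal was 500.2 on every array, and median signals ran from 87.6 to 106 units. Replicate arrays correlated across genes with r from 0.9778 to 0.9872, a description only because genes are not independent replicates. Titles describe biological replicates, but which culture each came from is not named. The p-values therefore cover the spread between the arrays at hand, which may be technical. Markers of the line were bright in all populations, with vimentin (VIM) between 18446 and 27237 units and the hyaluronan receptor CD44 between 6814 and 8344. Of 7 luminal or epithelial genes listed as low in this line, PGR and CDH1 stayed at or below 19 and 30 units and were not tested. The other 5 reached the filter level used for testing, and the keratin gene KRT19 (2260 to 2843 units) and EPCAM (346 to 495 units) were bright on every array without passing a test. GATA3 fell from a mean of 679 units to 285 and 182, and ERBB2 from 238 units to 168 and 160 (limma adjusted p = 1.18e-05 and 0.0281 in the mean of both isolates). Of 10 fibroblast markers, 8 lay below the filter level on average, among them PDGFRA (4.5 to 30.8 units) and DCN (4.3 to 50.1). LUM read 51.6 and 34.8 units in parental cells and 0.161 to 1.16 in the isolates. FBLN1 went the other way, from 32.8 and 17.4 units to between 38.5 and 59.9. On the rest of the markers below the filter level, isolate and parental arrays overlapped. The summed fibroblast list fell from 20330 and 21581 units on the parental arrays to between 1413 and 2904 on the isolate arrays, and nearly all of that sum was S100A4, which this line itself expresses. The other tested fibroblast marker, ACTA2 (smooth muscle actin), rose from a mean of 53.2 units in parental cells to 187 in S1a and 121 in S1b (log2 change 1.44 ± 0.21, limma adjusted p = 0.000433). The part of these markers in the results was not tested. The endothelial, leukocyte and adipocyte lists summed to at most 212, 280 and 208 units on any array.

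Collagen and crosslinking genes changed in both directions in the isolates, about as many up as down once dim genes were set aside. Tests used the log2 signal of the brightest probe set of each gene. A gene whose signal, averaged over the 6 arrays, lay below 44 units (the 40th percentile of all probe sets) was not tested. Of the 38 genes, 22 were tested, 16 collagens and all 6 enzymes. Averaged over the isolates and set against the parental line, 6 were higher and 9 lower at a limma adjusted p under 0.05, or 68.2% of the 22. Over all 7791 genes tested, 46.2% passed, 22.7% higher and 23.5% lower. The median log2 change was -0.17 over the tested members and -0.03 over all genes. COL16A1, COL1A2 and COL4A5 were tested only because the parental arrays lifted their average above 44 units, so the filter favoured falls in them. Their tests are therefore given from a fit with no filter, over all 11963 genes. Among the other 19, whose 3 group means all lay at or above 44 units, 6 were higher and 6 lower, beside 46.4% of all such genes, 23.3% higher and 23.1% lower. In S1a alone 6 rose and 10 fell, with 39.2% of all genes called (19.4% higher, 19.9% lower). In S1b alone 5 rose and 7 fell, with 41.6% of all genes called (20.7% higher, 20.9% lower). The falls include COL16A1, COL1A2 and COL4A5 in S1a and COL1A2 and COL4A5 in S1b, which the filter favoured. With no filter COL4A5 passed in each isolate, but COL16A1 in S1a and COL1A2 in either isolate did not. These comparisons share the parental arrays. In such bulk samples fewer cells of a type and less RNA per cell cannot be told apart.

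**Figure D1:**
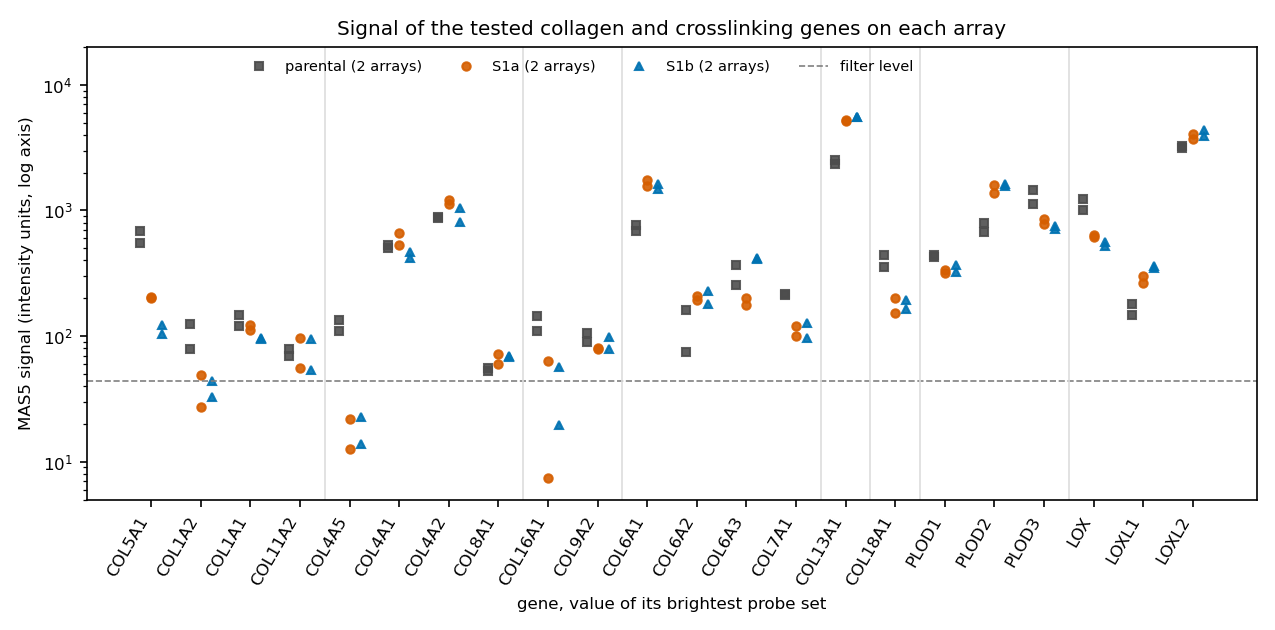
Signal of the 22 tested genes on each array (log axis, intensity units), with squares for parental, circles for S1a and triangles for S1b, 2 arrays each, and a dashed line at the filter level of 44 units. For COL13A1, COL6A1 and PLOD2 all 4 isolate arrays lie above both parental arrays, for COL5A1, COL18A1 and LOX all lie below, and levels of different genes cannot be compared because probes differ.

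COL13A1, which encodes a membrane-spanning collagen found at cell adhesions and junctions, rose in both isolates. Its signal was 2338 and 2504 units on the parental arrays, 5124 and 5259 in S1a, and 5549 and 5532 in S1b. Every isolate array lay far above both parental arrays, and the replicates lay close together. The log2 change was 1.10 ± 0.08 (SE, 2 arrays against 2, limma adjusted p = 8.15e-06) in S1a and 1.19 ± 0.08 (adjusted p = 3.5e-06) in S1b. Both other COL13A1 probe sets, which are dimmer, rose as well, by 1.23 and 2.02 in the mean of both isolates when every probe set was fitted. All 3 carry a suffix for probes that several transcripts can share. COL13A1 was the sole membrane-spanning collagen measured here.

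Among the fibril-forming collagens, which build the cross-striated fibrils of connective tissue, COL5A1 fell most of those tested. Collagen V sits inside collagen I fibrils and limits their width. COL5A1 read 550 and 692 units in parental cells, 202 and 204 in S1a, and 123 and 104 in S1b. All isolate arrays lay below both parental arrays, and both S1b arrays lay below both S1a arrays. The log2 change was -1.59 ± 0.18 in S1a (limma adjusted p = 0.000111) and -2.41 ± 0.18 in S1b (adjusted p = 6.13e-06). Its other probe sets fell by 1.65 and 1.71 on the log2 scale in the mean of both isolates. The difference of S1b from S1a was -0.82 ± 0.18 for the brightest probe set (limma adjusted p = 0.0486), but -0.17 and -0.13 for the other probe sets (adjusted p = 0.749 and 0.906 in the fit of every probe set). The call between isolates ended without S1a replicate 1, S1a replicate 2, S1b replicate 1 or S1b replicate 2, at -0.83, -0.81, -0.94 and -0.71, and it also ended under 10 settings that kept every array.

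COL1A2, the second chain of collagen I, was dim. It read 78.9 and 124 units in parental cells against 48.9 and 27.4 in S1a and 44.3 and 32.8 in S1b. Its isolate means lay under 44 units, so by means COL1A2 was at least 2.31-fold lower, though arrays at 48.9 and 44.3 units lay above. With no filter it passed in the mean of both isolates (fitted log2 change -1.32 ± 0.42, limma adjusted p = 0.0437) but in neither isolate alone (adjusted p = 0.0791 and 0.0842). The change was -0.81 with a pseudocount of 44. With the filter, the call ended without parental replicate 2 (-1.0, adjusted p = 0.137) and under quantile or cyclic loess normalization (adjusted p = 0.0504 and 0.0508). COL1A1, the first chain of collagen I, read 148 and 120 units in parental cells, 122 and 112 in S1a, and 95.3 and 96.6 in S1b. The parental and S1a arrays overlapped, and its change of -0.32 ± 0.21 did not pass (adjusted p = 0.239). COL11A2 did not pass either (-0.03 ± 0.34, adjusted p = 0.949). COL3A1, COL5A2, COL5A3, COL2A1 and COL11A1 were not tested. Of the 4 COL3A1 probe sets, the brightest on average stayed at or below 24.3 units on every array. Dimmer ones reached 31.4 units on parental replicate 1 and 29.9 on S1a replicate 1.

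The collagen VI chains did not move together. Collagen VI is a pericellular beaded filament made of the alpha 1, alpha 2 and alpha 3 chains. COL6A1 read 684 and 770 units in parental cells, 1567 and 1750 in S1a, and 1620 and 1473 in S1b. All 4 isolate arrays were above both parental arrays, and the isolates overlapped each other. The change was 1.19 ± 0.10 in S1a (limma adjusted p = 2.73e-05) and 1.08 ± 0.10 in S1b (adjusted p = 3.4e-05). COL6A1 has 8 probe sets, of which 4 reached the filter level and 3 of those passed as higher in the mean of both isolates. The dimmest of the 3 averaged 26.2 units in parental cells, 67.3 in S1a and 65.5 in S1b. It was tested only through the isolates, so the filter favoured a rise in it. Without shared-probe suffixes it stands for the gene. The second brightest gave 1.16 in S1a but 0.20 in S1b (adjusted p = 0.593 in the fit of every probe set). The other 4 had a mean under 44 units, and the call ended with the mean of all 8 (0.50, adjusted p = 0.259) and without shared-probe suffixes (1.48, adjusted p = 0.0512).

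COL6A2 encodes the alpha 2 chain, and its gene follows that of COL6A1 on chromosome 21 with 93063 bases between them (GRCh38.p14). It read 75.2 and 162 units in parental cells, 210 and 195 in S1a, and 227 and 180 in S1b. The change was 0.85 ± 0.27 in the mean of both isolates (limma adjusted p = 0.0266), but neither isolate passed alone (adjusted p = 0.0542 and 0.0509). Over 18 alternatives with a value, S1a passed in 7, S1b in 8 and the mean of both in 12. The parental arrays lay far apart. The value was 0.31 (adjusted p = 0.239) without parental replicate 1 and 1.38 (adjusted p = 0.00053) without parental replicate 2. The call also ended without S1a replicate 1 (0.82, adjusted p = 0.0519) or S1b replicate 1 (0.77, adjusted p = 0.0872), with no filter (adjusted p = 0.0568), without a variance trend (0.0819) and without shared-probe suffixes (0.60, adjusted p = 0.139).

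COL6A3, the alpha 3 chain, is the member that parted the isolates most clearly. It read 369 and 253 units in parental cells, 201 and 177 in S1a, and 413 and 417 in S1b. Both S1a arrays lay below and both S1b arrays above the parental pair. S1b exceeded S1a by 1.12 ± 0.19 on the log2 scale (limma adjusted p = 0.0196). Against parental cells the change was -0.69 ± 0.19 in S1a (adjusted p = 0.0161) and 0.44 ± 0.19 in S1b, which did not pass (adjusted p = 0.0884). The difference between isolates stayed between 1.03 and 1.21 when S1a replicate 1, S1a replicate 2, S1b replicate 1 or S1b replicate 2 was left out, but its adjusted p then rose to between 0.0649 and 0.155. The S1a fall was -0.42 (adjusted p = 0.0882) without parental replicate 1 and -0.59 (adjusted p = 0.0911) without S1a replicate 2, and without a variance trend its adjusted p was 0.0517. The S1b change passed at 0.71 without parental replicate 1 (adjusted p = 0.00904), and at 0.53, 0.63 and 0.51 with quantile normalization, median centring and cyclic loess (adjusted p = 0.0446, 0.0116 and 0.0446). The difference between isolates did not pass without a variance trend (adjusted p = 0.169). Of the 22 tested members, COL6A3 passed as higher and COL5A1 as lower in S1b against S1a, beside 1.89% of all genes (0.462% higher, 1.42% lower).

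**Figure D2:**
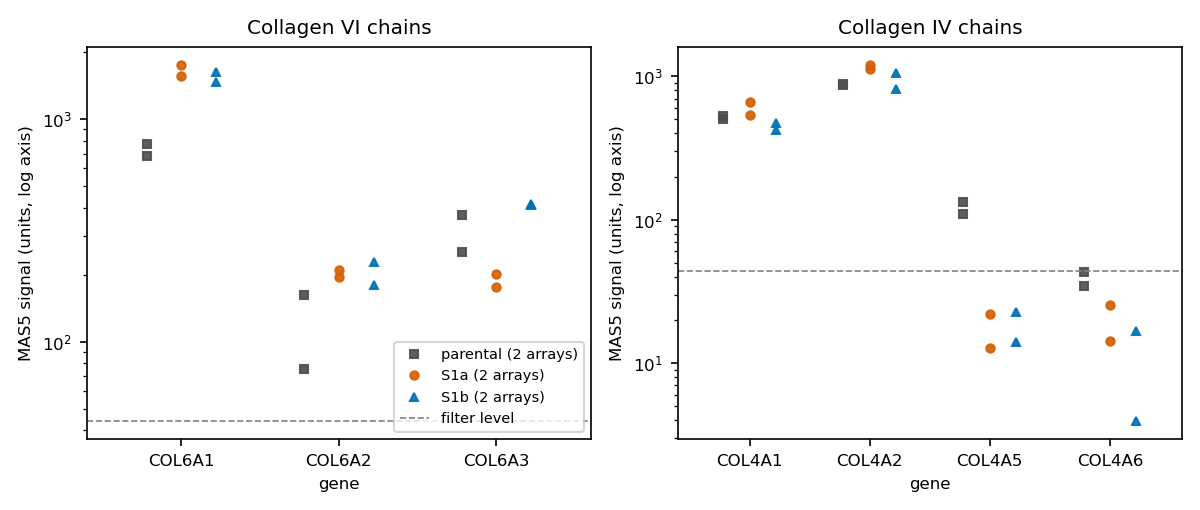
Signal of collagen VI chains (left) and collagen IV chains (right) on each array, log axes in intensity units, 2 arrays per population, dashed line at 44 units. COL6A1 and COL6A2 are higher on all isolate arrays, COL6A3 is low in S1a and high in S1b, and COL4A5 drops from 133 and 110 units to between 12.7 and 22.7.

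Of 4 tested network-forming collagens, 1 fell in the mean of both isolates and 3 did not pass, beside 23.5% lower and 22.7% higher of all genes. The fall was that of COL4A5, in which the filter favoured falls, and it also passed with no filter. Collagen IV is the scaffold of basement membranes, and its chain genes lie head to head in pairs that share the stretch between their starts. COL4A1 read 532 and 503 units in parental cells, 536 and 667 in S1a, and 470 and 422 in S1b, and did not pass in either isolate (adjusted p = 0.251 and 0.229), except in S1a with median centring (0.39, adjusted p = 0.0349). COL4A2 read 890 and 875 units in parental cells, 1125 and 1203 in S1a, and 1051 and 811 in S1b. It rose by 0.40 ± 0.12 in S1a (limma adjusted p = 0.0285) and did not pass in S1b (0.06 ± 0.12, adjusted p = 0.707). For both genes the S1b arrays lay below the S1a arrays, without passing (log2 differences of -0.42 and -0.33, adjusted p = 0.172 and 0.233). The S1a rise of COL4A2 lost its call under cyclic loess (adjusted p = 0.0569), without a variance trend (0.0972), and without parental replicate 2 (0.39), S1a replicate 1 (0.45) or S1a replicate 2 (0.35), and the change in the mean of both isolates passed without S1b replicate 2 (0.32, adjusted p = 0.0194) and with median centring (0.42, adjusted p = 0.00785).

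COL4A5, a chain of the specialised basement membranes of kidney, lung and eye, went from 133 and 110 units in parental cells to 12.7 and 22 in S1a and 14 and 22.7 in S1b. No isolate array came near a parental array. It was at least 2.77-fold lower, counted against 44 units. With no filter the fitted log2 change was -2.55 ± 0.46 (limma adjusted p = 0.00302), and with a pseudocount of 44 it was -1.42. With the filter, and without parental replicate 1 or parental replicate 2, its average fell under the filter and it was not tested. Its partner COL4A6 was dim throughout, at 42.9 and 34.5 units in parental cells and 3.9 to 25.4 in the isolates, and was not tested. COL8A1, a short-chain collagen, did not pass (0.30 ± 0.29, adjusted p = 0.438). COL4A3, COL4A4, COL8A2 and COL10A1 stayed at or below 66.4 units on every array.

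Sequence upstream of the collagen genes discussed so far is given from RefSeq (GRCh38.p14), whose promoter table held 28 of the 38 genes. The windows show the COL13A1 rise, the COL5A1 fall and the COL4A5 fall beside the stretch shared by COL4A1 and COL4A2, whose log2 changes against parental cells were at most 0.40 in size. Each is the 250 bases before the annotated start, or for COL4A1 and COL4A2 the 126 bases between their starts, 5′ to 3′ on the strand of the gene (of COL4A2 for the pair). Capitals mark matches on either strand to 5 motifs, and matches may overlap. The TATA box was searched as TATAAA. The CCAAT box was searched by its name. The GC box was searched as GGGCGG. The AP-1 site was searched as TGANTCA, which none of the windows printed here holds and 6.6% of windows do. The core of the hypoxia response element was searched as ACGTG.
COL13A1, chr10:69801656-69801905, plus strand: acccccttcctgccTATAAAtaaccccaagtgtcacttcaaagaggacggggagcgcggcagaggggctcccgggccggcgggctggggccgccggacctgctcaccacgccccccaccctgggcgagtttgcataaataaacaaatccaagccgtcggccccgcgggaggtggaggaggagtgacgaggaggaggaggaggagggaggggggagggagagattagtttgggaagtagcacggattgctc
COL5A1, chr9:134641553-134641802, plus strand: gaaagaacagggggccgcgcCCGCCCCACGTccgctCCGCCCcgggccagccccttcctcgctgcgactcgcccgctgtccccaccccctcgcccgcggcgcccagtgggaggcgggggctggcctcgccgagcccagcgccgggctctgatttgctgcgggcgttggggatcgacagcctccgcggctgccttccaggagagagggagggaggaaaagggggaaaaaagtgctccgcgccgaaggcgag
COL4A5, chrX:108439588-108439837, plus strand: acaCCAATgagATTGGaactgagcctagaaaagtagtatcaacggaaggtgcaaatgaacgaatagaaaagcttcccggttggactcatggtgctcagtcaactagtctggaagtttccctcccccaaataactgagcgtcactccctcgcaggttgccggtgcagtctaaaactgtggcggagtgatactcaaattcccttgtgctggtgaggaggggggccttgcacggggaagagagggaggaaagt
COL4A1 and COL4A2, chr13:110307158-110307283, plus strand: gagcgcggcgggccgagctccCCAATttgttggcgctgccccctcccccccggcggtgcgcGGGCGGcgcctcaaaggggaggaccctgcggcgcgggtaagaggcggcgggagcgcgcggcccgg
COL13A1 holds 1 TATAAA, a match found in 10.7% of the 35116 windows of 250 bases in the table. COL5A1 holds 2 GC boxes, found at least once in 42.6% of windows, and 1 ACGTG, found in 18.5%. COL4A5 holds 2 CCAAT matches, found in 32.0% of windows, and the stretch between COL4A1 and COL4A2 holds 1 CCAAT and 1 GC box, found in 21.1% and 34.6% of windows of 126 bases. These matches describe the letters in the windows and no binding was measured.

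Further collagens of basement membranes and their anchors fell in both isolates. COL18A1 encodes a basement membrane collagen whose C-terminal fragment is endostatin. It read 446 and 352 units in parental cells, 153 and 202 in S1a, and 193 and 165 in S1b. All isolate arrays lay below both parental arrays, the isolates overlapped, and the change was -1.15 ± 0.17 in the mean of both (limma adjusted p = 0.000448). Its other probe set fell too (-0.95, adjusted p = 0.00713 in the fit of every probe set). In that fit it passed in S1b (-1.32, adjusted p = 0.00302) but not in S1a (-0.58, adjusted p = 0.112).

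COL7A1, the anchoring fibril collagen that ties epithelial basement membrane to stroma, read 213 and 218 units in parental cells, 121 and 99.8 in S1a, and 96.6 and 128 in S1b. The isolates did not overlap the parental arrays, and the change was -0.94 ± 0.20 (limma adjusted p = 0.00347). With the mean of its 2 probe sets it did not pass (-0.76, adjusted p = 0.0849). In S1a alone the call ended without S1a replicate 2 (-0.82, adjusted p = 0.0677), and in S1b alone without S1b replicate 1 (-0.74, adjusted p = 0.0722).

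Of the fibril-associated collagens, which decorate fibril surfaces, COL16A1 read 111 and 144 units in parental cells, 7.35 and 63.5 in S1a, and 57.2 and 19.7 in S1b. Replicates of an isolate differed widely, although all 4 lay below the parental pair. By group means COL16A1 was at least 2.9-fold lower, counted against 44 units. The isolate arrays at 63.5 and 57.2 units lay above that level. With no filter COL16A1 did not pass (fitted log2 change -2.01 ± 0.71, limma adjusted p = 0.0655). With the filter it was called (adjusted p = 0.0317), at -1.14 with a pseudocount of 44. That call ended under cyclic loess (adjusted p = 0.0512), without a variance trend (0.0978), with array weights (0.0682), and without parental replicate 1 (-2.19, adjusted p = 0.0589), parental replicate 2 (-1.82, adjusted p = 0.114) or S1b replicate 2 (-1.67, adjusted p = 0.0931). COL9A2 did not pass (-0.22 ± 0.24, adjusted p = 0.486). The 5 other members of this class (COL9A1, COL9A3, COL14A1, COL19A1 and COL21A1) were not tested.

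In all, 16 collagen genes lay below the filter level. On 13 of them isolate and parental arrays overlapped. On COL15A1, COL4A6 and COL5A3 all 4 isolate arrays read lower than both parental arrays. The share of such genes among all genes below the filter level was not counted. Median signals of all probe sets were also higher on the parental arrays (106 and 98.6 units) than on the isolate arrays (87.6 to 91.7). COL15A1, a basement membrane collagen related to COL18A1, read 42.1 and 89.9 units in parental cells, 22 and 17.3 in S1a, and 9.29 and 8.32 in S1b. COL5A3, a chain of collagen V, read 19.8 and 33.2 units in parental cells against 3.21 to 7.9 in the isolates. Signals this low carry no detection call here, and none of the 3 was tested.

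**Figure D3:**
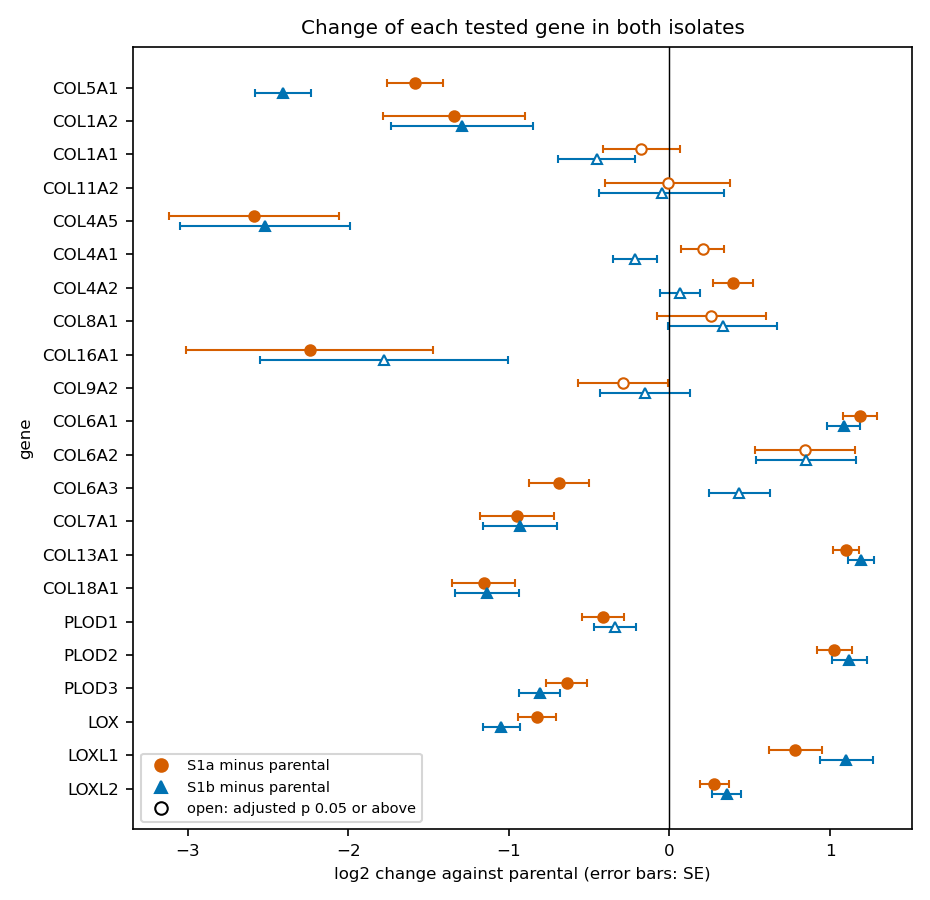
Log2 change of each tested gene in S1a (circles) and S1b (triangles) against parental, with the SE as error bars; filled symbols passed at an adjusted p under 0.05. The isolates lie side by side for most genes, COL6A3 and COL4A1 have opposite signs in S1a and S1b, and PLOD2 and LOX point in opposite directions.

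All 6 crosslinking enzymes passed in the mean of both isolates, 3 higher and 3 lower, so that both families split. Over all genes tested 46.2% passed, 22.7% higher and 23.5% lower. Of the lysyl hydroxylases, PLOD2, which hydroxylates lysines in the telopeptides that form stable crosslinks, was higher. It read 676 and 787 units in parental cells, 1389 and 1600 in S1a, and 1557 and 1622 in S1b. Every isolate array was above both parental arrays, and the isolates overlapped. The log2 change was 1.03 ± 0.11 in S1a (limma adjusted p = 8.77e-05) and 1.12 ± 0.11 in S1b (adjusted p = 3.73e-05), and the second PLOD2 probe set gave 1.08 in the mean of both.

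PLOD3, which hydroxylates lysines and also adds sugars to them, went the other way. It read 1124 and 1460 units in parental cells, 784 and 860 in S1a, and 715 and 746 in S1b. The isolates lay wholly below the parental arrays, and the change was -0.72 ± 0.11 in the mean of both (limma adjusted p = 0.000499). PLOD1, which hydroxylates lysines within the helix, read 429 and 445 units in parental cells, 316 and 338 in S1a, and 325 and 365 in S1b. Its fall was smaller (-0.38 ± 0.11, limma adjusted p = 0.0213) and did not pass in S1b alone (-0.34 ± 0.13, adjusted p = 0.062). The PLOD1 call ended with median centring (-0.19, adjusted p = 0.232) and without parental replicate 2 (-0.35, adjusted p = 0.0794), S1a replicate 1 (-0.35, adjusted p = 0.0659) or S1b replicate 1 (-0.34, adjusted p = 0.0595).

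Of the lysyl oxidases, LOX, the founding member of the family, fell. Its signal was 1227 and 1016 units in parental cells, 642 and 616 in S1a, and 520 and 558 in S1b. Both S1b arrays lay below both S1a arrays, which lay below the parental arrays, but S1b and S1a did not differ by the test (-0.22 ± 0.12, adjusted p = 0.418). The change against parental cells was -0.83 ± 0.12 in S1a (limma adjusted p = 0.000476) and -1.05 ± 0.12 in S1b (adjusted p = 9.01e-05). Its second probe set fell by 1.16 on the log2 scale in the mean of both, and the dimmest gave -0.65 without passing (adjusted p = 0.122).

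LOXL1, which acts on elastic fibres, rose. It read 180 and 147 units in parental cells, 266 and 302 in S1a, and 361 and 347 in S1b. The 3 populations did not overlap, and the change was 0.78 ± 0.17 in S1a (limma adjusted p = 0.00442) and 1.10 ± 0.17 in S1b (adjusted p = 0.000544). S1b and S1a were not shown to differ (0.32 ± 0.17, adjusted p = 0.411).

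LOXL2, which crosslinks collagen IV among other substrates, rose slightly, from 3286 and 3120 units in parental cells to 3727 and 4044 in S1a and 4331 and 3886 in S1b. The change was 0.32 ± 0.08 in the mean of both (limma adjusted p = 0.00767). A dimmer LOXL2 probe set gave 0.11 (adjusted p = 0.626). That probe set was at 0.45 in S1a and -0.22 in S1b. Neither passed in the fit of every probe set (limma adjusted p = 0.104 and 0.41). The LOXL2 call in the mean of both isolates ended with the mean of its probe sets (0.28, adjusted p = 0.164). With median centring the change was 0.50. The S1a call also ended without parental replicate 2 (0.24), S1a replicate 1 (0.34) or S1a replicate 2 (0.22), and the S1b call without S1b replicate 1 (0.28). With every array kept, the S1a call ended with no filter, quantile normalization, no variance trend or the replicate block (limma adjusted p from 0.0527 to 0.109). Without a variance trend the S1b call ended too (adjusted p = 0.0571).

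The upstream sequence of PLOD2 and LOX, both known targets of the hypoxia-inducible factors, is shown because they moved in opposite directions. The windows, the build and the motifs in capitals are as given for the collagens.
PLOD2, chr3:146161185-146161434, minus strand: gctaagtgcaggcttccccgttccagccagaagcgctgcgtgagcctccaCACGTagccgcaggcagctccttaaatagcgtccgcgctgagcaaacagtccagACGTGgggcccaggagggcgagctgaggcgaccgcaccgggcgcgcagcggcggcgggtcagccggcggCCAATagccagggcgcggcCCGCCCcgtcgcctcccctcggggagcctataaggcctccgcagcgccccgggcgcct
LOX, chr5:122078260-122078509, minus strand: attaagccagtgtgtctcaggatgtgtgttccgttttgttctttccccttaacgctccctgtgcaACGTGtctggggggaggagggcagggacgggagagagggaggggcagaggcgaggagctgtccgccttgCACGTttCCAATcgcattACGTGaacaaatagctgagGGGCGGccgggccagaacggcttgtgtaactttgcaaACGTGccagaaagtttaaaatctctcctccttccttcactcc
PLOD2 holds 2 and LOX 4 matches to ACGTG, which 18.5% of all windows hold at least once. Each also holds 1 CCAAT and 1 GC box. No binding to these windows was measured.

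**Figure D4:**
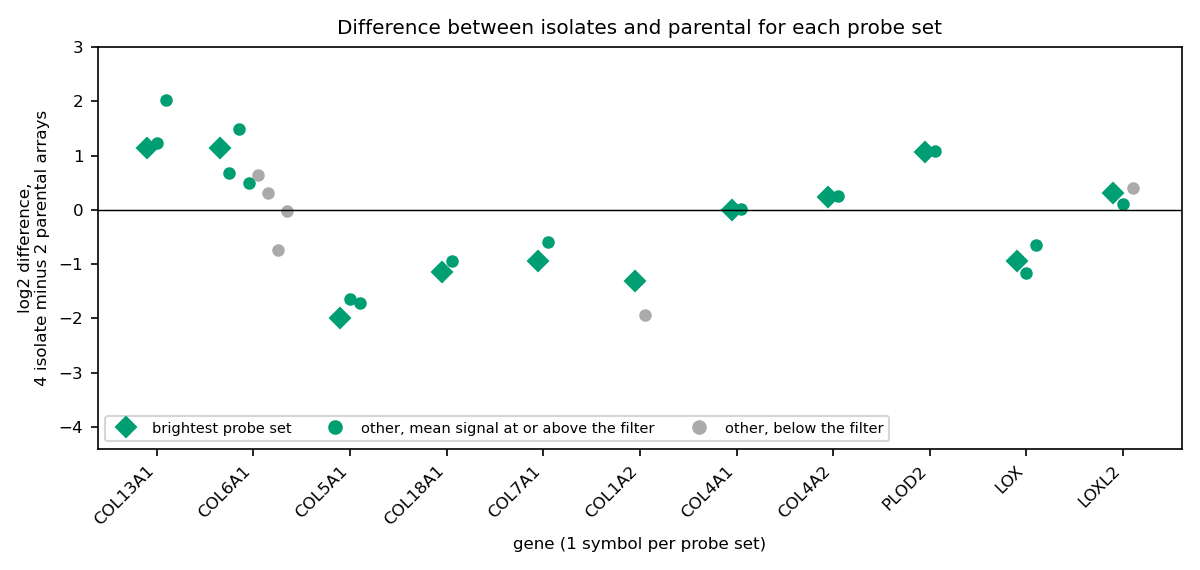
Log2 difference between the mean of 4 isolate and of 2 parental arrays for each probe set of 11 genes; diamonds mark the brightest probe set, circles the others, grey those with a mean below 44 units. Probe sets of COL13A1, COL5A1, COL18A1, PLOD2 and LOX have 1 sign per gene, while the dim probe sets of COL6A1 scatter around 0.

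At the level of probe sets, 39 of the 84 reached the filter level. Of these, 11 passed as higher and 13 as lower in the mean of both isolates. Over all 11860 probe sets tested 42.6% passed, 20.1% higher and 22.6% lower. The lower ones include those of COL16A1, COL1A2 and COL4A5, in which the filter favoured falls. The higher ones include the COL6A1 probe set that was tested only through the isolates. Probe sets of a gene share their target, so they are not independent counts.

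Genes that fold, secrete, cleave and degrade collagen were read beside the members from lists of the pathway. In the list of hydroxylation, folding and glycosylation, 8 of 15 tested genes fell and 1 rose, beside 23.5% lower and 22.7% higher of all genes. P4HA2, a catalytic subunit of prolyl 4-hydroxylase, averaged 1188 units in parental cells, 438 in S1a and 274 in S1b (log2 change -1.76 ± 0.12, limma adjusted p = 3.27e-06). SERPINH1, the collagen chaperone HSP47, fell by 1.46 ± 0.12 on the log2 scale and HSPA5, the general chaperone BiP, by 0.76 ± 0.08. The exception was the prolyl 3-hydroxylase P3H2, which rose by 0.99 ± 0.09 (limma adjusted p = 1.36e-05).

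In the list of procollagen secretion, 5 of 14 tested genes fell and 2 rose, beside 23.5% lower and 22.7% higher of all genes. CREB3L1, a transcription factor that activates collagen and secretion genes, fell by 1.27 ± 0.14 on the log2 scale (limma adjusted p = 6.97e-05). TRAPPC2, a tethering factor, fell by 0.96 ± 0.16. The coat protein gene SEC31A fell by 0.38 ± 0.07, a call that ended with median centring (-0.19, adjusted p = 0.128), and TFG, which organises exit sites, rose by 0.37 ± 0.07.

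In the list of propeptide cleavage and other crosslinking, 2 of 5 tested genes fell and none rose in the mean of both isolates, beside 23.5% lower and 22.7% higher of all genes. PCOLCE, an enhancer of that cleavage, was at 0.71 ± 0.29 by limma, under an unadjusted p of 0.05 but not past the adjusted one (adjusted p = 0.0645). In S1b alone it passed as higher (0.98 ± 0.33, adjusted p = 0.0364). That S1b call ended with no filter (adjusted p = 0.0876), array weights (0.0585) and the replicate block (0.0561). It also ended without parental replicate 1, S1a replicate 1, S1a replicate 2, S1b replicate 1 or S1b replicate 2, at log2 changes between 0.85 and 1.09. BMP1, the procollagen C-proteinase that also activates LOX, fell by 1.34 ± 0.31 on the log2 scale (limma adjusted p = 0.00584), with means of 182 units (parental), 73.8 (S1a) and 69.9 (S1b). Transglutaminase 2 (TGM2), which makes another kind of crosslink, fell by 0.99 ± 0.08, but by 0.28 with the mean of its probe sets (adjusted p = 0.186).

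Among fibril-binding matrix proteins, 3 of 5 tested genes fell and 1, SPARC, rose, beside 23.5% lower and 22.7% higher of all genes. Fibronectin (FN1) fell by 0.49 ± 0.08 and thrombospondin 1 (THBS1) by 0.84 ± 0.10 on the log2 scale. SPARC, a collagen-binding matricellular protein, was at a mean of 38.4 units in parental cells and 37 in S1a but 380 in S1b, so it was tested only through S1b, where it was at least 8.65-fold higher than in parental cells, counted against 44 units. With no filter the S1b rise passed (limma adjusted p = 0.000161), and S1a did not pass with the filter (adjusted p = 0.911). Fibromodulin (FMOD) fell by 0.84 ± 0.28, a call that ended without parental replicate 1, parental replicate 2, S1a replicate 1, S1a replicate 2 or S1b replicate 2, at log2 changes between -0.89 and -0.75, and under 6 settings that kept every array.

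The degradation list was led by the collagenase MMP1, the largest rise in the lists, with a mean of 363 units in parental cells, 6601 in S1a and 12124 in S1b. In all, 3 of 12 tested genes rose and 5 fell, beside 23.5% lower and 22.7% higher of all genes. The lysosomal cathepsins CTSL and CTSB fell by 1.26 ± 0.09 and 1.05 ± 0.08 on the log2 scale, and TIMP1, an inhibitor of collagenases, by 1.14 ± 0.09 (limma adjusted p = 7.65e-06). Of the collagen receptors, 1 of 4 tested genes fell (23.5% of all genes) by limma and none rose, at an unadjusted p under 0.05 either: the integrin subunit ITGB1 changed by -0.21 ± 0.07 (adjusted p = 0.0359). That call ended with median centring (-0.02, adjusted p = 0.879) and without parental replicate 2, S1a replicate 1, S1a replicate 2, S1b replicate 1 or S1b replicate 2, at log2 changes between -0.22 and -0.19. It also ended with the mean of probe sets (-0.02, adjusted p = 0.972), no filter, quantile normalization, no variance trend, array weights and the replicate block. ITGA2, which pairs with ITGB1 to bind collagen, did not pass (-0.56 ± 0.28, adjusted p = 0.13).

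**Figure D5:**
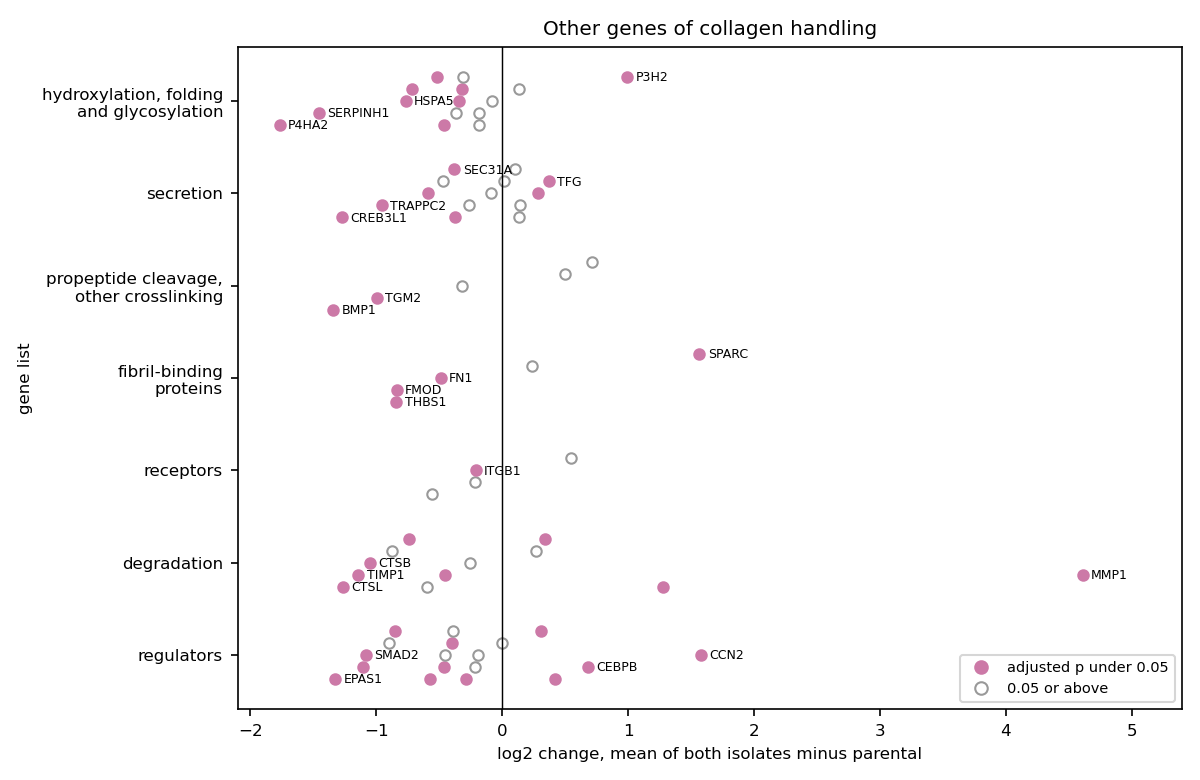
Log2 change, isolate mean minus parental, for the tested genes of 7 lists of collagen handling; filled points passed at an adjusted p under 0.05, and the leading genes of each list are named. P4HA2 and SERPINH1 lie at the low end of the first list with P3H2 opposite, and MMP1 stands apart at 4.61.

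Of the 12 calls in the mean of both isolates among genes with every group mean at or above 44 units, 7 were kept in each of the 18 or 19 alternatives that gave a value, each array left out included. These were COL13A1, COL5A1, COL18A1, PLOD2, PLOD3, LOX and LOXL1, which were also called throughout in S1a alone and in S1b alone. The alternative with every probe set fitted read the brightest of each gene, so it did not check the dimmer probe sets. COL13A1, COL18A1, PLOD2 and LOX had no value without shared-probe suffixes, since all their probe sets at or above the filter carry one.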

How the data were processed

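Biotin-labelled total RNA was measured on 6 Affymetrix arrays, 2 per population. The deposited values are linear intensities, 1 MAS5 signal per probe set and array, as the submitters' processing notes name it; its version is not stated. No scanner file or detection call entered. The number of arrays limits the precision.

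Of 22215 probe sets other than controls, 19064 had 1 annotated symbol, updated through a RefSeq table (GRCh38.p14, 19052 matched). No member probe set had several symbols. The brightest probe set stood for a gene. Values were log2(signal + 3.949), a pseudocount at the 10th percentile of signals, which understates changes of dim genes. Where a group mean lay below 44 units, the ratio of the other mean to 44 is written "at least N-fold". It bounds the means and not single arrays. For the members and SPARC the test is given from the fit with no filter. limma 3.58.1 in R 4.3.3 was fitted to all 6 arrays with 3 group means and a variance trend (3 residual and 7 prior degrees of freedom), with Benjamini-Hochberg adjustment over 7791 genes (11860 for every probe set) and a threshold of 0.05. It was tested on simulated data.

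The members, the lists and the naming rule were chosen with earlier results of these data known. All values are given for members past the threshold with a log2 change of at least 0.58 in size, in the mean of both isolates or between the isolates, and others by value or range. In each list up to 4 genes with the smallest p-values are named. Alternatives varied the pseudocount, filter, scaling, probe-set choice, variance model, weights, replicate block and arrays used.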

Additional observations from a re-analysis of the deposited data

Results flagged for a closer look

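The test of S1b against S1a compares the changes of the 2 isolates directly, since both are set against the same parental arrays. By limma, 2 of 22 tested members and 6 of 73 tested genes of the other lists passed it, beside 1.89% of all genes (0.462% higher, 1.42% lower). COL6A3 differed by 1.12 (log2, S1b minus S1a, adjusted p = 0.0196), with -0.69 in S1a and 0.44 in S1b against parental, and COL5A1 by -0.82 (adjusted p = 0.0486), with -1.59 and -2.41. Of the genes in the other lists, SPARC was at least 8.65-fold higher in S1b, since S1a lay under 44 units (fitted difference 3.23, adjusted p = 0.00388 with no filter). MMP1 differed by 0.88 (adjusted p = 0.00125), EPAS1 by -0.95 (adjusted p = 0.00166), P3H2 by -0.75 (adjusted p = 0.00462) and P4HA2 by -0.68 (adjusted p = 0.0449). TIMP3, an inhibitor of metalloproteinases that was named after its values were seen, differed by -1.31 (adjusted p = 0.000624), with 0.20 in S1a and -1.11 in S1b. P3H2 rose by 1.37 in S1a and 0.62 in S1b. The S1b minus S1a calls of COL6A3, COL5A1, MMP1, EPAS1, P3H2 and P4HA2 ended without a variance trend. The alternatives were not read for TIMP3. The EPAS1 call also ended with the mean of probe sets (-0.61, adjusted p = 0.191). That of P3H2 ended without S1a replicate 1 (-0.76), S1a replicate 2 (-0.75) or S1b replicate 2 (-0.71), and that of P4HA2 without S1a replicate 1 (-0.61), S1a replicate 2 (-0.74), S1b replicate 1 (-0.82) or S1b replicate 2 (-0.53). The P4HA2 call also ended with no filter, quantile or cyclic loess normalization, the mean of probe sets, and the replicate block, and without shared-probe suffixes. Its limma adjusted p there ran from 0.0556 to 0.0828. With 2 arrays per population no single array could be tested as an outlier.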

How the results depend on the processing

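Counts are members called in the mean of both isolates (6 higher, 9 lower), S1a (6, 10), S1b (5, 7) and S1b against S1a (1, 1). The lower counts against parental include dim genes in which the filter favoured falls. Without shared-probe suffixes they were 1 and 5, 2 and 6, and 1 and 3, with 0 lower in S1b against S1a; only 13 members were then tested. With a filter at the 60th percentile, which also left 13, the lower counts were 5, 6 and 4. With arrays left out in turn the higher and lower counts ran from 5 to 7 and 5 to 9, 4 to 6 and 6 to 10, 4 to 6 and 5 to 8, and 0 to 1 and 0 to 1; a lone array was assumed to vary like the other groups. In S1b against S1a the COL6A3 call ended, leaving 0 higher, without a variance trend. The COL5A1 call ended, leaving 0 lower, with a pseudocount of 16 or 44, no filter, quantile or cyclic loess normalization, the mean of probe sets, every probe set fitted, no variance trend, and the replicate block. The cause was not tested. Deviations of arrays with the same replicate number correlated between groups at -0.0046, -0.0675 and -0.0583, so no strong shared deviation was seen. Whether arrays with the same number were handled together is not given. With the block, 6 were higher and 9 lower in the mean of both. Median centring moved the median change of all genes from -0.03 to 0.16 and the share of higher among called genes from 49.2% to 70.9%, and gave 7 higher and 8 lower members. No member called reversed in any alternative that gave a value.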

Other observations

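Regulators of collagen genes changed in both directions. Of 18 tested genes in that list, 4 rose and 8 fell in the mean of both isolates (22.7% of all genes rose and 23.5% fell). CCN2, a matricellular target of TGF-beta signalling, averaged 3830 units in parental cells, 10828 in S1a and 12085 in S1b, a log2 change of 1.58 ± 0.08 (limma adjusted p = 3.34e-07). The transcription factor gene CEBPB rose by 0.68 ± 0.08. SMAD2, a signal transducer of TGF-beta receptors, averaged 1010 units in parental cells, 434 in S1a and 523 in S1b (-1.08 ± 0.12, limma adjusted p = 7.43e-05). EPAS1, which encodes HIF-2 alpha, averaged 1285, 712 and 366 units in the same order (-1.32 ± 0.09, limma adjusted p = 2.78e-06).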
